A study of Mus musculus with 4 samples.

Results

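The cells described here are fibroblasts and other stromal cells of the mouse lung, 54 barcodes of the 27495 lung barcodes that passed filtering and of 49121 such barcodes in the whole data set. They were chosen by the measured counts of 10 genes. A barcode, the tag of 1 droplet and in most cases of 1 cell, was kept when 200 or more genes were detected and mitochondrial transcripts made up no more than 10% of its unique molecular identifiers (UMIs, the counted RNA molecules). It was then called stromal when it held at least 2 of Col1a1, Col1a2, Col3a1, Dcn, Mgp and Gsn, at least 1 of them a collagen, with at least 3 UMIs of the 6 genes together. It also had to have no UMI of Ptprc, Cd79a, Cd3e or Cdh5, genes of leukocytes, B cells, T cells and endothelium. This rule found 21 barcodes in the lung library of mice with liver metastases and 33 in the lung library of sham mice.

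The mice were female C57/Bl6 animals of 6 to 8 weeks. The metastasis arm received 800000 B16F10 cells, a mouse melanoma line, into the spleen on day 0, and the sham arm received saline in their place. Splenectomy followed at once in both arms, every mouse was also given 250000 B16F10 cells under the skin, and lung and blood were taken on day 7. There was 1 library for each tissue and arm, and the labels do not say how many mice it drew on, so no difference below has a replicate check, and all intervals cover counting error only. The lungs were pressed through a 70 µm filter and passed over columns that remove dead cells, and the series also names enrichment of CD45-positive immune cells. Fibroblasts lack CD45, so those counted here are what such a preparation left, and their yield need not follow their share of the lung.

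Fibroblasts make and remodel the connective tissue of the lung. Those of the adventitia, the sleeve around large vessels and airways, are known for Pi16, Clec3b and Dcn, while those of the alveolar wall are known for Tcf21, Npnt and Itga8, and smooth muscle and myofibroblasts carry Acta2, Tagln and Myh11. Fibroblasts are also a local source of complement proteins and of cytokines such as interleukin-6 and interleukin-33, and they respond to interleukin-1, the cytokine named in the title of the series. Mesothelial cells, the epithelium-like layer that covers the lung surface, share collagens and Dcn with fibroblasts and differ from them by Wt1, Upk3b, Msln and Krt19.

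The 6 genes of the rule were abundant in the members, which is a description of how they were chosen. Members held 9 to 880 UMIs of these genes in the metastasis library (median 156) and 11 to 779 in the sham library (median 182). Just outside the threshold stood 1 metastasis barcode with 2 UMIs and 3 metastasis barcodes with 1 of the 6 genes at 1 UMI. The exclusion genes removed 1 further metastasis barcode and 7 sham barcodes. Gsn, an actin-severing protein, was the most abundant transcript beside haemoglobin at 27027 CPM in metastasis and 26577 CPM in sham. CPM here means UMIs per 1000000 UMIs of the summed members, with haemoglobin left out. Dcn, the small proteoglycan decorin, stood at 15387 and 13185 CPM, and Mgp, an inhibitor of calcification, at 9410 and 10985 CPM. The collagens were lower, with Col1a1 at 1301 and 1226 CPM, Col1a2 at 1888 and 2554 CPM, and Col3a1 at 1630 and 2001 CPM. As a measure of free RNA, among barcodes with Cd79a (B cells) Col1a1, Col1a2, Col3a1, Dcn and Mgp had a UMI in 0 of 2334 in metastasis, and in 1 to 11 of 5294 in sham. Gsn was seen in 3.30% and 5.04% of the Cd79a barcodes, at median depths of 1760.5 and 2291 UMIs without haemoglobin against 3025 and 3807 in the stromal ones.

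The members were shallow or moderately deep. Their UMIs ran from 1486 to 8465 in metastasis (median 3706) and from 794 to 12097 in sham (median 4340), with median gene counts of 1508 and 1940. Summed without haemoglobin they gave 69929 and 135454 UMIs, so 1 UMI was worth 14.3 CPM in metastasis and 7.38 CPM in sham. Haemoglobin made up 78.1% of all UMIs of the metastasis lung library and 65.7% of the sham one, and 15.5% and 10.4% of the UMIs of the members. It exceeded 5% in 6 barcodes of each library, and 1 sham member was at 85.2% with 355 genes. The lung libraries shared 316 barcode sequences, 52 of them kept in both and 0 of them stromal, and Scrublet, a doublet caller, scored no member at 0.3 or more, against 394 and 689 kept barcodes of the libraries.

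By their other markers most members were adventitial fibroblasts. All 23 adventitial markers were detected in both libraries. Without Dcn, a gene of the rule, the other 22 summed to 19863 CPM in metastasis and 20760 CPM in sham, against 182 and 192 CPM in the other kept barcodes. Clec3b, which encodes tetranectin, was present in 18 of 21 and 28 of 33 members, at 4462 and 4924 CPM. Pi16, a peptidase inhibitor that marks adventitial fibroblasts in many tissues, was present in 12 of 21 and 29 of 33, at 1931 and 1772 CPM. Cd34 stood at 944 and 1034 CPM, and Serpinf1, the secreted pigment epithelium-derived factor, at 987 and 1174 CPM. The range within a library was wide, from 11 to 557 adventitial UMIs per barcode, Dcn included, in metastasis and from 2 to 512 in sham.

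Markers of alveolar fibroblasts were detected in part. Of the 18 on the list 13 and 14 had a UMI, 258 and 470 UMIs in all, or 3689 and 3470 CPM against 365 and 446 CPM in the other kept barcodes. At least 3 of these UMIs lay in 18 of 21 metastasis members and 29 of 33 sham members. Of the markers that define alveolar fibroblasts, Col13a1, Scube2 and Nebl had 0 UMIs in both libraries, Npnt had 1 and 0, and Itga8 had 0 and 1. Tcf21 gave 7 and 24 UMIs in 5 and 14 members, and Inmt, a methyltransferase on the same list, 84 and 190 UMIs in 13 and 26 members.

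The defining markers of contractile cells and pericytes were rare. Acta2 had 3 UMIs in 1 metastasis barcode and 1 UMI in 1 sham barcode, while Tagln, Myh11, Cnn1 and Actg2 had none. The whole contractile list gave 40 and 75 UMIs, and the pericyte list 5 and 30. The leukocyte lists were low, with 4 and 12 myeloid UMIs and 0 and 11 lymphoid UMIs, and Epcam and Cdh1, which define epithelium, were at 0. The epithelial list gave 48 and 50 UMIs in 16 and 17 members, of which 43 and 40 were of Scgb1a1, at 686 and 369 CPM against 27260 and 7929 CPM outside. The endothelial list gave 115 and 288 UMIs in 18 of 21 and 28 of 33 members, at 1645 and 2126 CPM against 287 and 365 CPM outside. Ly6a, a surface protein of several cell types, made up 90 and 225 of these UMIs, and Pecam1 gave 1 in each library. Of the pigment-cell genes that B16F10 cells could bring, Tyrp1, Dct, Tyr, Slc45a2 and Sox10 were at 0 in both libraries. The whole pigment-cell list gave 15 and 17 UMIs in 10 members of each library, at 215 and 126 CPM against 13.43 and 10.03 CPM outside, with 9 and 8 of these UMIs from the transcription factor Mitf, 1 and 0 from Pmel and 0 and 1 from Mlana. The part of these lists in the results below was not tested. The plot of marker lists sets these sums beside those of the other barcodes.

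**Figure D1:**
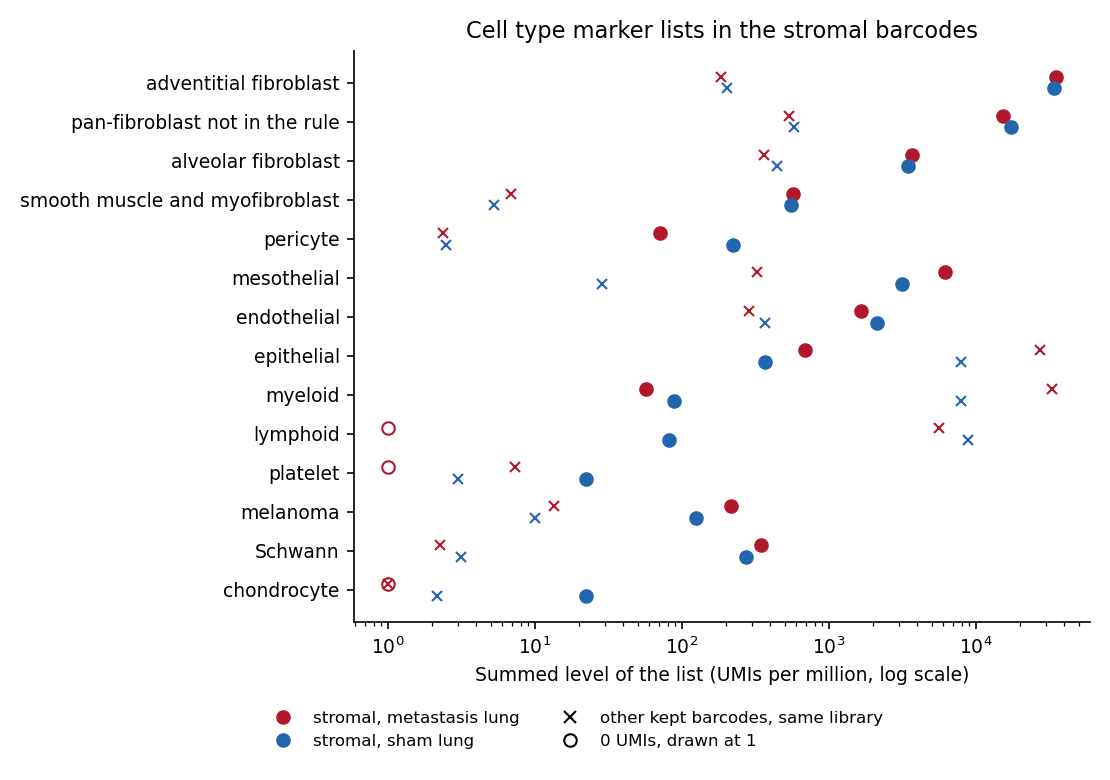
Summed level of each cell type marker list (CPM without haemoglobin, log axis) in the stromal barcodes (filled points, 21 metastasis in red and 33 sham in blue) and in all other kept barcodes of the same library (crosses). The adventitial list, Dcn included, is the highest of the lists drawn at 35250 and 33945 CPM (red cell genes are not drawn), the lymphoid, platelet and chondrocyte lists have 0 UMIs in metastasis (open points drawn at 1), and the mesothelial list is higher in metastasis (6178 CPM) than in sham (3138 CPM). That list includes C3 (3790 and 2303 CPM) and Igfbp5 (1073 and 517 CPM), which are not particular to mesothelial-like barcodes.

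The share of stromal barcodes depended on what it was divided by. They were 0.157% of the 13363 kept barcodes in metastasis (exact Clopper-Pearson 95% interval 0.0973 to 0.240%) and 0.234% of 14132 in sham (0.161 to 0.328%). The ratio of these shares, metastasis over sham, was 0.673 with an exact conditional binomial interval of 0.370 to 1.20, so a difference was not detectable at this depth. With barcodes made mainly of haemoglobin left out of the base, 20 of 7054 against 31 of 11994 barcodes gave a ratio of 1.10 (0.593 to 1.99). Over barcodes without a Ptprc UMI the ratio was 0.242 (0.133 to 0.430), where the base itself was 6862 barcodes in metastasis and 2605 in sham. The part of the haemoglobin-rich and Ptprc-free barcodes in the ratio was not tested. In blood the same rule found 1 of 8597 kept barcodes in metastasis and 0 of 13029 in sham, the latter with an exact interval of 0 to 0.0283%.

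A distinct set of 6 mesothelial-like barcodes lay in the metastasis library. They are the members with at least 2 of Msln, Upk3b, Wt1, Lrrn4, Krt19, Muc16 and Upk1b, a criterion set after the values were seen and therefore a description. They made up 6 of 21 members in metastasis (28.6%, exact interval 11.3 to 52.2%). In sham they were 0 of 33 (exact interval 0 to 10.6%). Wt1, a transcription factor of mesothelium, had 14 UMIs in all 6 of these barcodes, 0 in the other 15 metastasis members, and 3 UMIs in a single sham member. Upk3b, a uroplakin, and Krt19, a keratin, had 10 UMIs each in 5 of the 6 and none in any other member. Clustering of the 54 members on their own, on all variable genes, put exactly these 6 into 1 of 5 clusters, with Wt1 and Upk3b among the 10 leading genes. Both are genes of the criterion and the same counts were used, so the clustering is a further description and no separate support.

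The same barcodes lacked what the rest had. Gsn had 0 UMIs in 5 of them and 1 UMI in the sixth, against 7 to 398 UMIs in the other metastasis members and 1 to 479 in the sham members. Pi16, Pdgfra, Inmt, Serpinf1, Dpt and Pcolce2 had no UMI in the 6, whose 13454 UMIs without haemoglobin allow up to 223 CPM at 0. Timp3, an inhibitor of matrix proteases, stood at 74.3 CPM in them, 3949 CPM in the other metastasis members and 3027 CPM in sham. Dcn was present in every one at 20068 CPM, above the level in the others (14272 and 13185 CPM), and Col3a1 at 1264 CPM, so they met the rule through these genes. Gsn, Dcn and Col3a1 are genes of the rule, so their levels are given as a description only. After thinning each barcode to 1000 UMIs without haemoglobin, Gsn was detected in 15 of 21 metastasis members (71.4%) and 29 of 30 sham members (96.7%), with 3 shallower sham members left out, against 76.2% and 100% before thinning.

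**Figure D2:**
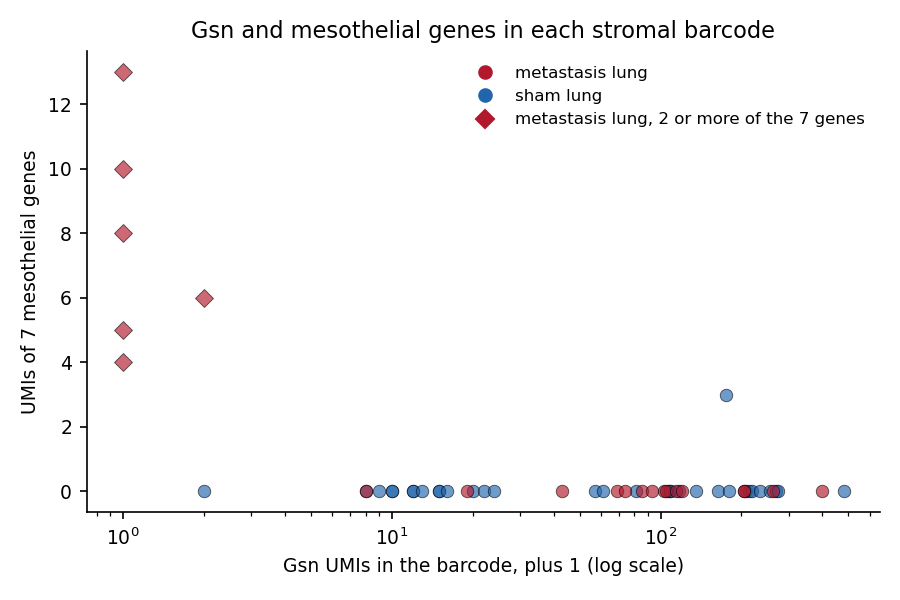
Each point is 1 stromal barcode, with its Gsn UMIs plus 1 on a log axis and the summed UMIs of Msln, Upk3b, Wt1, Lrrn4, Krt19, Muc16 and Upk1b on the other. Gsn is a gene of the rule. The 6 metastasis barcodes with 2 or more of the 7 genes (diamonds) have 0 or 1 Gsn UMIs, and among the other 48 members only 1 sham barcode has any of the 7 genes, 3 UMIs of Wt1.

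Secreted proteins set the mesothelial-like barcodes apart as well. C3, the central complement protein, is on the mesothelial marker list but not among the genes of the criterion. It reached 5798 CPM in these barcodes against 3311 CPM in the other metastasis members and 2303 CPM in sham. Rarres2, the chemoattractant chemerin, stood at 3716 CPM in them against 691 and 938 CPM. Igfbp6, a binder of insulin-like growth factor, stood at 4311 CPM against 2160 and 1838 CPM. Dpp4, a cell-surface peptidase that is also on the adventitial list, had 8 UMIs in 5 of the 6, none in the other metastasis members and 1 in sham. Gpm6a, which encodes a membrane glycoprotein, had 19 UMIs in 5 of the 6 and none elsewhere among the members. Malat1, a nuclear non-coding RNA, was 41252 CPM in them against 14360 and 15983 CPM, and its part in these differences was not tested. Among all kept barcodes, 9 of the metastasis lung carried at least 2 of the 7 genes, 8 of them free of the exclusion genes, and 0 of the sham lung and 0 of either blood library did.

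For the comparison of the arms, UMIs were summed over the members of each library. A gene counted as measured when the libraries together held 50 or more of its UMIs and its mean level was 10 CPM or more, and as called when the levels differed at least 2-fold and the exact 95% interval of the log2 ratio (metastasis over sham) excluded 0. Of 618 measured genes, 13 (2.10%) were called higher in metastasis and 30 (4.85%) lower, 6.96% in all, around a median log2 ratio of -0.08. With the scale set so that this median is 0, the split was 16 higher and 23 lower. Without the 6 mesothelial-like barcodes 570 genes were measured, 13 (2.28%) were called higher and 27 (4.74%) lower. Only 4 of the 13 higher genes were the same in both lists (30.8% of each), while 22 lower genes were shared (73.3% and 81.5%).

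**Figure D3:**
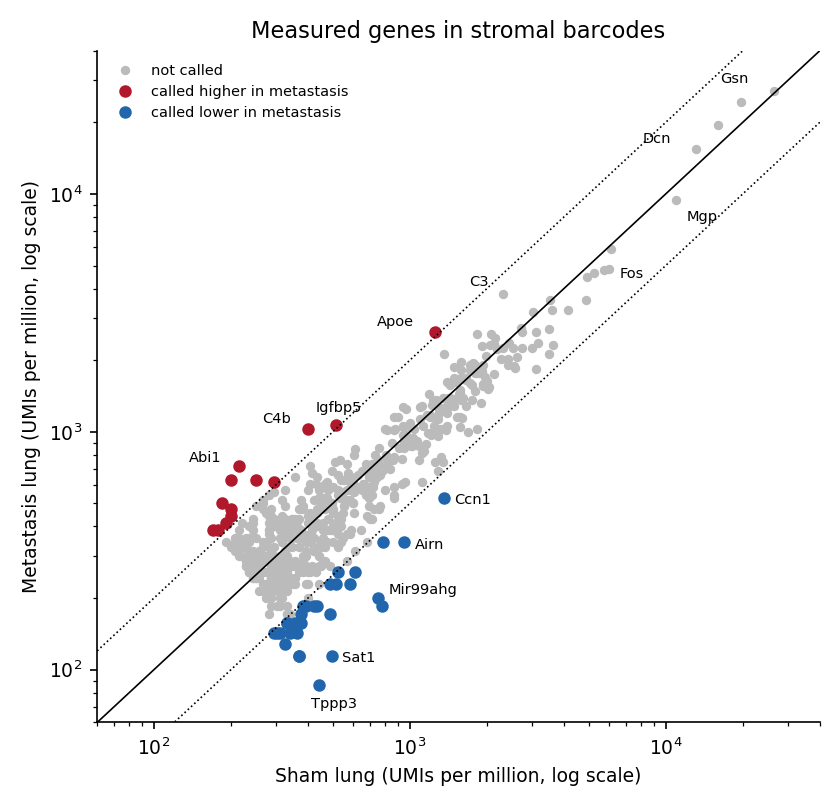
Level of each of the 618 measured genes in the summed stromal barcodes of sham lung (x axis) and metastasis lung (y axis), in CPM without haemoglobin on log axes, with lines at equality (solid) and at 2-fold (dotted). The abundant genes Gsn, Dcn and Mgp, which are genes of the rule and shown as a description, lie near equality. The 13 genes called higher (red) sit at moderate levels, and the 30 called lower (blue) include Tppp3, Sat1 and Mir99ahg far from the line.

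Most measured complement genes lay above equality in metastasis, and 2 were called. Complement is a cascade of plasma proteins, in which C1r and C1s start the classical pathway, C4 and C3 are cleaved in turn, factor B builds the alternative convertase, C7 joins the membrane attack complex, and the C1 inhibitor Serping1 holds it back. Of the 26 complement and coagulation genes listed, 11 were measured, 2 were called higher (C4b and Cfb), 0 lower, 10 lay above 0, and the median log2 ratio was 0.51 against -0.08 over all measured genes. Over all 618 measured genes 2.10% were called higher and 261 lay above 0. The list's median ran from 0.35 to 0.59 over the alternative settings. It was 0.49 without the mesothelial-like barcodes, where Cfb and C7 were called and C4b was not.

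C4b had 72 UMIs in 14 metastasis members and 54 UMIs in 14 sham members, 1030 against 399 CPM, a log2 ratio of 1.37 (0.84 to 1.91). In the mesothelial-like barcodes it was 2007 CPM, and in the other metastasis members 797 CPM, which left a ratio of 1.00 (0.40 to 1.60) to sham. Cfb had 31 and 27 UMIs, in 11 members of each library, 443 against 199 CPM and a log2 ratio of 1.15 (0.36 to 1.95). One metastasis barcode held 41.9% of its UMIs, and with the top barcode of each library set aside the ratio was 0.89 and no longer called. Endothelial-like barcodes held 0 UMIs of C4b and of C3 in either arm.

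C3 had 265 and 312 UMIs, 3790 against 2303 CPM, at 0.72 (0.48 to 0.96), an interval that excluded equality around a ratio under the 2-fold limit. It came out highest in the mesothelial-like barcodes, and the other metastasis members stood at 0.52 (0.25 to 0.79) to sham. C7, by contrast, had 25 and 28 UMIs over all members, 358 against 207 CPM at 0.79 (-0.05 to 1.62), and was not called. It had no UMI in the mesothelial-like barcodes. The other metastasis members, at 443 CPM, stood at 1.10 (0.26 to 1.93) to sham. Serping1 at 0.01 (-0.25 to 0.26) and C1s1 at 0.03 (-0.50 to 0.55) stood close to equality, so the list did not move as a whole. C3 and C4b were thus highest in the mesothelial-like barcodes and C7 in the other metastasis members, as the plot of complement levels shows.

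**Figure D4:**
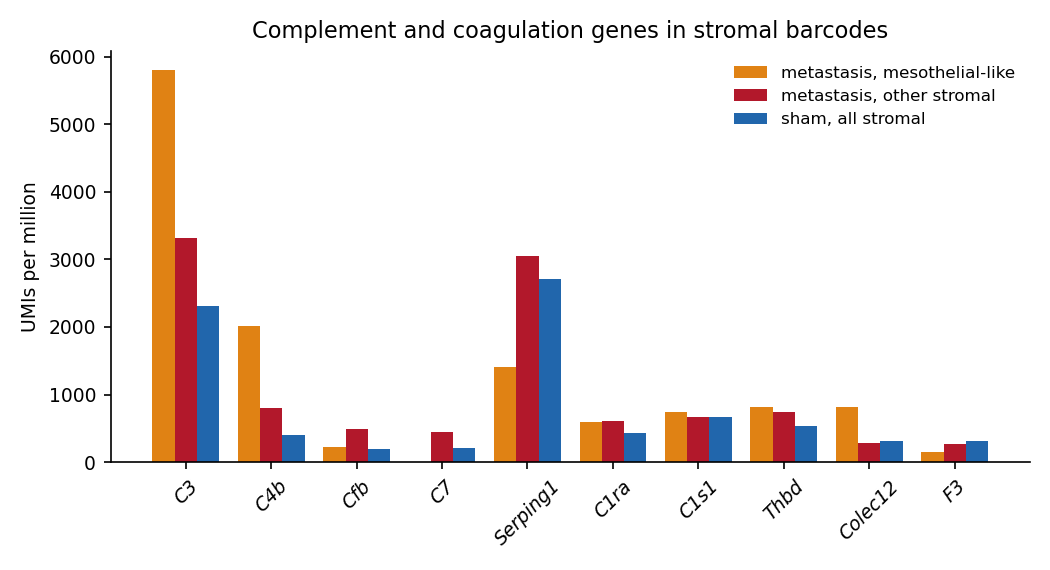
Levels of measured complement and coagulation genes (CPM without haemoglobin, bars from 0) in the 6 mesothelial-like metastasis barcodes (orange), the other 15 metastasis members (red) and the 33 sham members (blue), with no error bars because each bar is 1 sum. C3 is 5798, 3311 and 2303 CPM in that order, while C7 is 0, 443 and 207 CPM.

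The start regions of C3 and C7 are shown because the genes follow the different patterns just described. The 250 bases before each start site come from RefSeq (build GRCm38.p6, both on the minus strand, read 5′ to 3′), at chr17:57228137-57228386 for C3 and chr15:5063774-5064023 for C7, and the tables used held no entry for Cfb or C4b. Capitals mark the STAT motif TTCNNNGAA.
C3: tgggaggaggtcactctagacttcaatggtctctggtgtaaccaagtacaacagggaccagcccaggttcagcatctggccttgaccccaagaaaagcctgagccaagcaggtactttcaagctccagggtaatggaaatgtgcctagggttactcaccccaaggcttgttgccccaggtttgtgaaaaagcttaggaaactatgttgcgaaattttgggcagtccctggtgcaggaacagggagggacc
C7: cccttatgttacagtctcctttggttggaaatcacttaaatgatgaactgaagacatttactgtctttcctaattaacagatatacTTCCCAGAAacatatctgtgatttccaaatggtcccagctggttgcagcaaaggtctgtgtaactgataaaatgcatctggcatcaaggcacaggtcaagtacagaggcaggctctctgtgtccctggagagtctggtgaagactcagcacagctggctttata
The motif occurs at -164 from the start of C7, and 7.02% of 32851 mouse promoter windows of this length hold it on either strand. Neither window holds TGANTCA (AP-1), which occurs in 6.75% of the windows. A match is a match of letters only.

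The remaining genes called higher had mixed roles. Apoe, the lipid carrier apolipoprotein E, had 183 and 170 UMIs, 2617 against 1255 CPM, at 1.06 (0.75 to 1.37), and 0.91 without the mesothelial-like barcodes. Igfbp5, a growth factor binder on the mesothelial marker list, stood at 1073 against 517 CPM, 1.05 (0.56 to 1.54), and at 0.56 without them. In sham, 1 barcode held 55.7% of its UMIs. Abi1, an adaptor of actin assembly, had 50 and 29 UMIs (715 against 214 CPM, 1.74), of which 30 lay in the mesothelial-like barcodes, and Pde4d, a cyclic AMP phosphodiesterase, 44 and 27 UMIs (629 against 199 CPM, 1.66), of which 23 lay there. Without these barcodes Abi1 and Pde4d stood at 0.73 and 0.90 and had too few UMIs to be measured. Osr1, a transcription factor of mesenchyme, was 501 against 185 CPM (1.44), and 1.08 without them, also on too few UMIs.

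Cdkn1a, C1qtnf7, Cfb and Nox4 were called higher with and without the mesothelial-like barcodes. Cdkn1a, the cell cycle inhibitor p21, had 44 and 34 UMIs, 629 against 251 CPM, at 1.33 (0.65 to 2.02) and 1.57 without them. One metastasis barcode held 40.9% of these UMIs, and with the top barcodes set aside the ratio was 0.96. C1qtnf7, a secreted protein of the C1q and tumour necrosis factor family, was 472 against 199 CPM at 1.24 (0.47 to 2.03). Nox4, an oxidase that makes hydrogen peroxide, was 386 against 177 CPM at 1.12 (0.28 to 1.98), and 0.21 when each barcode had equal weight. The other 3 genes called higher, Scgb1a1, Rabgap1l and Txnip, did not reach a stromal level at least 2 times that of the other barcodes. Scgb1a1, a secretory protein of airway club cells, was 615 and 295 CPM in the members and 26458 and 7509 CPM outside them.

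**Figure D5:**
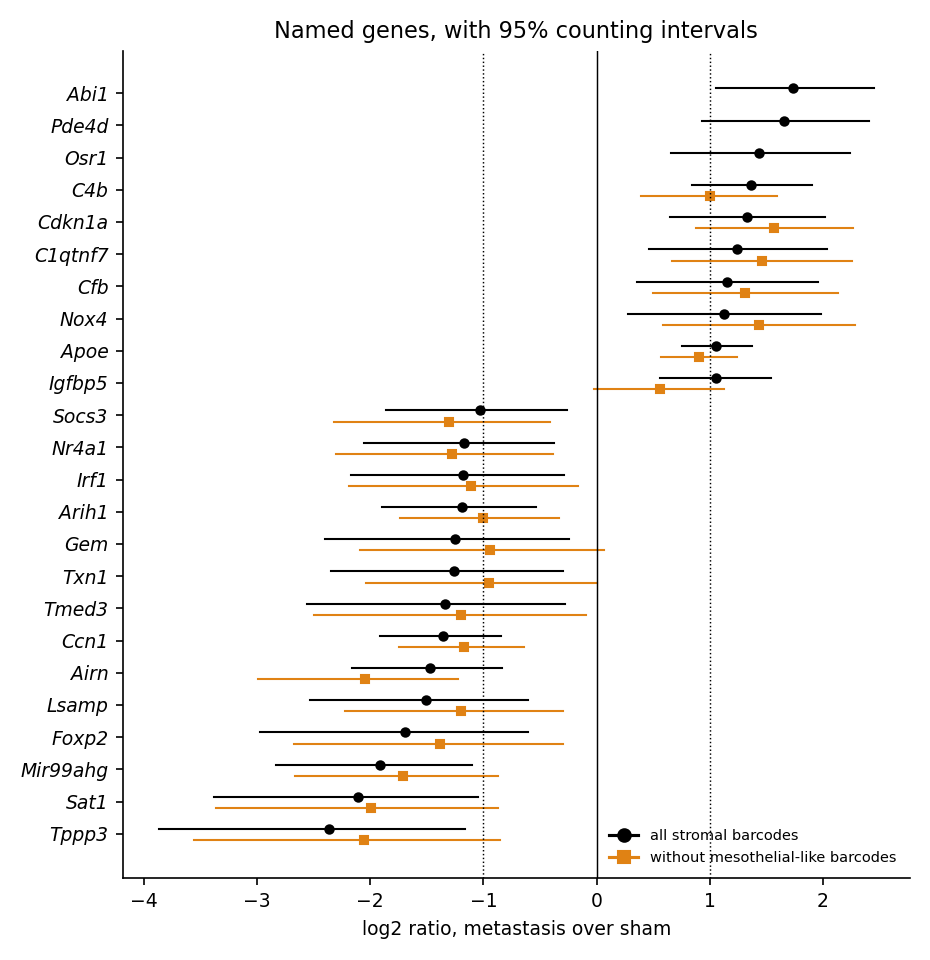
Log2 ratio of metastasis over sham with its exact 95% counting interval for named genes, over all stromal barcodes (black) and without the 6 mesothelial-like ones (orange, absent where fewer than 50 UMIs remain). Abi1, Pde4d and Osr1 have no orange value and Igfbp5 drops to 0.56, while the lower genes from Airn (-1.47 and -2.05) to Tppp3 (-2.37 and -2.06) stay below -1.

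Most genes called lower in metastasis were also called lower when the mesothelial-like barcodes were set aside. Tppp3, which promotes microtubule assembly, had 6 UMIs in 5 metastasis members and 60 UMIs in 18 sham members, 85.8 against 443 CPM, at -2.37 (-3.87 to -1.16). Sat1, the enzyme that acetylates polyamines for export, had 8 and 67 UMIs, 114 against 495 CPM, at -2.11 (-3.38 to -1.05). The long non-coding RNA Mir99ahg was found in 8 of 21 and 23 of 33 members, 200 against 753 CPM at -1.91 (-2.83 to -1.10). In barcodes thinned to equal depth it was found in 2 of 21 and 12 of 30, and Tppp3 in 0 of 21 and 7 of 30. Detection at equal depth did not separate the arms for every called gene. For example, C4b was found in 9 of 21 and 13 of 30, Ccn1 in 6 and 10, and Txn1 in 6 and 9. C1qtnf7, called higher, was found in 3 of 21 and 6 of 30.

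Further genes called lower were Lsamp, an adhesion molecule (-1.51), the transcription factor Foxp2 (-1.69), Arih1, a ubiquitin ligase (-1.19), Tmed3 of the early secretory pathway (-1.34), and Txn1, thioredoxin (-1.26). Airn, a non-coding RNA, was 343 against 952 CPM (-1.47), uncertain because it runs antisense through Igf2r and no source used here gives the strand setting of the counts. Sat1, Ccn1 and Nr4a1 were called lower in endothelial-like barcodes too (43 metastasis, 106 sham), at -1.32, -1.56 and -1.06. In that class 8.62% of 499 measured genes were called higher and 7.21% lower. Tppp3 and Mir99ahg stood at -0.34 and -0.43 there. In epithelial-like barcodes (31 metastasis, 30 sham) Tppp3 was 351 against 176 CPM, at 1.00 (0.30 to 1.74), and Sat1 stood at 0.69 (-0.27 to 1.74). The differences between the classes were not tested.

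Collagen genes, for a main product of these cells, had no calls. Of 7 fibrillar collagens 5 were measured, of which Col1a1, Col1a2 and Col3a1 are genes of the rule and are given as a description only. The median log2 ratio was -0.34, and 4 of the 5 lay below 0. Col1a2 stood at -0.44 (-0.74 to -0.14) and Col1a1 at 0.09 (-0.30 to 0.46). Outside the rule, the minor fibril collagens Col5a1 and Col5a2 were 172 against 281 CPM and 257 against 325 CPM. Of 22 genes for collagen processing 7 were measured and none called, and 5 lay below 0. Among them Sparc was at 1487 and 1801 CPM, and the collagen chaperone Serpinh1 at 543 and 864 CPM, -0.67 (-1.24 to -0.13), an interval that excluded equality. Other collagens had 3 measured genes and no call, with Col14a1 at 915 and 1063 CPM. With 6.96% of all measured genes called, lists of this size allow nothing to be read from a count of 0.

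Single matrix genes were lower in metastasis. Ccn1, a matricellular protein and immediate early gene, had 37 and 184 UMIs, 529 against 1358 CPM, at -1.36 (-1.91 to -0.84), and -0.77 without barcodes over 5% haemoglobin. It and Lamc1, a laminin chain, were the 2 called of 17 measured proteoglycan and matricellular genes. The share called lower was 4.85% over all 618 measured genes. Mfap4, of the elastic fibre, was 172 against 377 CPM at -1.13 (-2.18 to -0.21), 1 of 8 measured in that list. Htra1 and Mmp3, matrix proteases, were called lower among 11 measured protease and inhibitor genes, at -1.17 and -1.07. Of the 13 metastasis UMIs of Mmp3, 69.2% lay in 1 barcode. Mfap4, Mmp3 and Lamc1 had 0 UMIs in the mesothelial-like barcodes and were not called once these were left out (-0.83, -0.77 and -0.77), while Ccn1 and Htra1 were (-1.17 and -1.52). The TGF-beta and BMP list had 6 measured genes, no call and a median of -0.58, with Fstl1 at 529 and 864 CPM and the receptor Tgfbr3 at 672 and 413 CPM.

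Few interleukin-1 and NF-kB response genes were abundant enough to compare. Of 37 listed genes 6 were measured and 0 were called, beside 6.96% of all measured genes, and the other 31 could not be called, so nothing is read from this count. The median log2 ratio of the 6 was 0.02. Il1r1, the receptor for interleukin-1, had 13 UMIs in 7 metastasis members and 33 UMIs in 13 sham members, 186 and 244 CPM, below the minimum for a call. Its partner Il1rap had 1 and 7 UMIs, and Il1rl1, the interleukin-33 receptor, none. Il33, an alarmin stored in the nucleus, was 243 and 325 CPM, at -0.42 (-1.32 to 0.42). Cxcl1, a neutrophil chemokine, was 300 and 332 CPM, but its UMIs sat in 4 and 7 members, with 68.9% of those in sham in 1 barcode.

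Several other cytokine genes had few UMIs or none. Il6 had 5 and 13 UMIs in 3 members of each library, and Cxcl2 had 1 and 0. Ccl2, Csf3, Saa3 and Lcn2, products often raised by interleukin-1, had 0 UMIs in both, which allows levels of up to 3 UMIs, or 42.9 and 22.1 CPM. Cxcl12, the chemokine that holds CXCR4-bearing cells, was 372 and 583 CPM at -0.65 (-1.35 to 0.01), and Csf1, the macrophage growth factor, had 7 and 20 UMIs. Nfkbia and Nfkbiz, inhibitors induced by NF-kB itself, were 515 and 450 CPM, and 358 and 310 CPM. Of the receptors for platelet-derived growth factor, Pdgfra was 300 and 391 CPM, and Pdgfrb had 3 and 18 UMIs.

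Fos and other immediate early genes were abundant in both arms. These genes, such as Fos and Jun, are switched on within minutes by many stimuli, tissue dissociation among them. Fos stood at 4819 and 5995 CPM in the members against 393 and 201 CPM in the other kept barcodes, and was present in 16 of 21 and 22 of 33 members. Of 38 listed genes 20 were measured, 0 were called higher and 2 lower (Socs3 and Nr4a1), and 15 lay below 0, with a median of -0.31. Over all 618 measured genes 4.85% were called lower and 357 lay below 0. Jun was 2317 against 3640 CPM at -0.65 (-0.92 to -0.39), Fosb 1830 against 3108 CPM at -0.76 (-1.06 to -0.48), and Atf3 1030 against 1824 CPM at -0.82 (-1.22 to -0.44). Fos was 2230 CPM in the mesothelial-like barcodes and 5436 CPM in the other metastasis members, and without the former the list's median was -0.14, with 12 of 20 genes below 0. In endothelial-like barcodes Jun stood at -0.79 (-1.15 to -0.43) and Egr1 was called lower at -1.63 (-2.13 to -1.16), against -0.05 (-0.32 to 0.23) for Egr1 in the stromal members. In epithelial-like barcodes, where 9.47% of 380 measured genes were called higher and 8.95% lower, Fos was called higher at 1.30 (0.43 to 2.26) and Atf3 and Klf6 lower at -2.33 (-3.27 to -1.47) and -1.68 (-2.49 to -0.92), while Jun stood at -0.65 (-1.36 to 0.06).

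Nr4a1, an orphan nuclear receptor, was 229 against 517 CPM at -1.18 (-2.06 to -0.38). Socs3, the feedback inhibitor of cytokine receptors, was 257 against 524 CPM at -1.03 (-1.86 to -0.26), but -0.05 without the barcodes over 5% haemoglobin. Gem, a small GTPase, had 10 and 46 UMIs, a log2 ratio of -1.25, and -0.17 when each barcode had equal weight. Among 6 measured heat shock genes 1 was called lower, beside 4.85% of all 618 measured genes. It was the co-chaperone Dnaja1 (257 against 613 CPM, -1.25), from a stromal level under 2 times that of the other barcodes (277 and 327 CPM).

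The other lists held few measured genes. Over all 618 measured genes 2.10% were called higher and 4.85% lower, and nothing is read from the counts of calls in lists this small. Of 4 measured interferon genes, Irf1, a transcription factor, was called lower at 186 against 421 CPM (-1.18), and Ifi27l2a at 157 against 332 CPM (-1.08). The stromal level of Ifi27l2a was under that of the other barcodes, 287 and 422 CPM. Ifitm3 and Ifitm2 stood at -0.05 and 0.09. Irf1 was at -0.82 in endothelial-like barcodes, where it was not called. In the acute phase and STAT3 list, 9 were measured, with C4b higher and Socs3 lower, and the metallothionein Mt1 was 615 and 1115 CPM. Cox7c, of the respiratory chain, was 143 against 310 CPM (-1.12), 1 of 8 measured, and 437 and 392 CPM in the other barcodes. Apoe was the 1 call among 5 measured lipid and retinoid genes, and Igfbp5 among 8 measured chemokine and growth factor genes. None of 2 contractile genes, 1 glycolysis gene, 4 antigen presentation genes, 6 glucocorticoid response genes or 11 adhesion genes and receptors was called, and 0 of 20 proliferation genes had enough UMIs to be measured.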

How the data were processed

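Each of the 4 droplet libraries was deposited as a matrix of whole UMI counts, unnormalised, over 32285 genes and its barcodes, and no cell annotation was used. The authors ran Cell Ranger 7.0.0, Seurat 4.3.0.1 and R 4.3.1 with the GRCm38.p6 build, per the submitters' processing notes, which give no role for each. From these counts, stromal barcodes were chosen by the rule in the report, their UMIs were summed per library and scaled to 1000000 UMIs without 10 haemoglobin genes, and each log2 ratio was given an exact 95% interval, from the binomial split of a gene's UMIs between the libraries. No p-value was computed, since no group has more than 1 library. PCR copies are collapsed by UMI, and the intervals and the 3-count floors cover counting error only.

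The members and the lists were chosen with earlier results of these data known. Named genes are up to 15 called genes per direction whose interval bound lies farthest from equality, with a CPM at least 2 times that of all other kept barcodes of the library where they are higher, without the genes of the rule, ribosomal, mitochondrial, haemoglobin, immunoglobulin and unnamed gene models, then up to 4 members of each list, and a set always reported. By this rule 10 higher and 15 lower genes were chosen, and some genes that the rules select are left out of the text and figures. Gene levels were compared as sums over barcodes, so deep barcodes weigh more. No barcode was removed as a doublet, because Scrublet (scanpy 1.11.5) scored no member at 0.3 or more. The members were clustered alone on 1000 variable genes with 10 components, 10 neighbours and Leiden resolution 1. Endothelial-like and epithelial-like barcodes needed at least 2 of their markers with at least 3 UMIs. Cdh5 was 1 of the endothelial markers. Endothelial-like barcodes had no UMI of Ptprc, Cd79a, Cd3e, Col1a1, Col1a2, Col3a1 or Epcam. Epithelial-like barcodes had no UMI of Ptprc, Cd79a, Cd3e, Cdh5, Col1a1, Col1a2 or Col3a1. The interval and call were also run on simulated Poisson counts, the model that the interval assumes. Such counts leave out the spread between barcodes, so they cannot show how the calls fare under it. Python 3.11.15, numpy 2.4.6, scipy 1.17.1 and pandas 2.3.3 were used.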

Additional observations from a re-analysis of the deposited data

How the results depend on the processing

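Of the alternative values of the summary results, 63 stayed near the reported ones and 12 did not. None of the named genes called higher or lower changed direction, and the direction of the other called genes was not followed over the alternatives. Over barcodes without Ptprc UMIs the ratio of stromal shares was 0.242 in place of 0.673. The 13 genes called higher became 23 with the mean of each barcode's CPM and 150 with a minimum of 10 UMIs in place of 50, and the 30 called lower became 110 with that minimum. Among the lists, 4 genes were called higher and 11 lower. With haemoglobin in the scale 2 were higher. With the scale set by the median of gene ratios, without barcodes over 5% haemoglobin, or without barcodes lacking Gsn, the last chosen after seeing the data, 7 were lower. With the mean of each barcode's CPM 7 were higher and 5 lower, and with a minimum of 10 UMIs 16 were higher and 17 lower. Leaving out mesothelial-like barcodes, leaving out those lacking Gsn, and leaving out the top barcode of each gene were alternatives added after the data were seen. Of 16 alternatives, the call held in 16 for Mir99ahg, Airn and Arih1, in 15 for C4b, Ccn1, Lsamp and Sat1, in 11 for Nox4 and Gem, and in 12 to 14 for the other 15 named genes, and the cause was not tested. The minimum of 50 UMIs left rare transcripts such as Il1r1 and Il6 without a call. No paired analysis was possible because each group has 1 library.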

Other observations

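Il6 and Cxcl10 were found in few members. Clustering of the 54 members gave 5 groups, of which 1, with 5 metastasis and 3 sham barcodes, was led by Cxcl10, Cxcl1, Has1, Il6 and Iigp1. Cxcl10, an interferon-induced chemokine, had 28 UMIs in 1 sham barcode and 1 UMI in 1 metastasis barcode. Has1, which makes hyaluronan, had 36 UMIs in 7 metastasis members and 43 UMIs in 7 sham members. It was 515 against 317 CPM at 0.70 (0.02 to 1.37) and was called higher, at 1.01 (0.33 to 1.68), without the mesothelial-like barcodes, in which it had 0 UMIs. Another group of 16, with 13 sham barcodes, was led by Sfrp1, Lpl, Stx2 and Pdlim2 and held Ccn1 among its first 10 genes. A group of 10, 3 from metastasis and 7 from sham, was led by Fabp4, Bpgm, Ctla2a and Alas2, of which Bpgm and Alas2 are red cell genes. The genes that define a group describe it and are no separate result.

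One sham member carried little of the stromal pattern. It had 11 UMIs of the 6 rule genes, no Dcn, 9 UMIs of Mgp, and 22 of Fabp4, 15 of Ctla2a, 12 of Plac8 and 5 of Lyve1, genes also known from endothelium. The single blood barcode that met the rule had 3 UMIs of the rule genes among 2627 UMIs.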
